A study of Caenorhabditis elegans with 2 samples.

Results

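The genes that encode the proteins of the cytosolic ribosome were examined for occupancy by RPC-1 in Caenorhabditis elegans. RPC-1 is the catalytic core subunit of Pol III (RNA polymerase III), and its biggest one. Members were the protein-coding genes of the RefSeq annotation of WBcel235 whose names are rpl- or rps- followed by a number. This gave 78 of the 19971 protein-coding genes on the 6 nuclear chromosomes, 48 of the large subunit (rpl-) and 30 of the small subunit (rps-). The names beginning with rla-, also looked for, matched 0 genes in this annotation. The RefSeq product names a ribosomal protein for 75 members. The other 3 are rps-10, whose product carries an eS10 domain, rps-27A, listed as a ubiquitin-like protein, and rpl-42, listed as a protein with a NAM-associated domain.

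Chromatin immunoprecipitation with sequencing (ChIP-seq) was done on whole young adult worms of strain YL517. In this transgenic line RPC-1 is fused to GFP-FLAG at its C terminus, the worms were a mixed-sex population, and the labels name rpc-1 as the target of the antibody, although one description writes PRC-1. The 2 libraries are biological replicates 1 and 2 of 1 group. Each has a biosample record of its own, and the labels do not describe the cultures, so their spread may be partly technical. No second condition exists to compare with, and all values below are counts and medians over genes, set beside those of the other 19893 protein-coding genes. Chromatin came from whole animals, so a signal in few cells and a weak signal in many cells cannot be told apart.

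Ribosomal protein genes are transcribed by RNA polymerase II into short, abundant mRNAs, and their products assemble with rRNA in the nucleolus. Pol III supplies other parts of the same machinery, namely 5S rRNA and the tRNAs. Many Pol III genes, tRNA genes among them, recruit the enzyme through an internal promoter element called the B box, which is bound by the factor TFIIIC. In C. elegans many mRNAs are trans-spliced to a leader RNA, so an annotated transcript start often marks the splice site and not the point where the polymerase began.

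In the pooled list the strongest sites at ribosomal protein genes were upstream of 4 large subunit genes, rpl-3, rpl-15, rpl-18A and rpl-35. These genes carry the highest pooled values of the whole gene family, and 3 of the regions are shown. Each run is 300 bp of the WBcel235 (ce11) assembly from RefSeq, centred on the summit of the pooled peak list and read along the strand of the gene. They span chrIII:7854578-7854877 on the plus strand for rpl-35, chrIV:4749889-4750188 on the minus strand for rpl-18A and chrIV:654771-655070 on the minus strand for rpl-15. All 3 are intergenic and hold 0 bases of annotated UTR. Capitals mark AAGTGT and AGTGTA, read on either strand, which are among the 18 words of 6 letters found within 100 bp of the summit in all 3 regions.
rpl-35: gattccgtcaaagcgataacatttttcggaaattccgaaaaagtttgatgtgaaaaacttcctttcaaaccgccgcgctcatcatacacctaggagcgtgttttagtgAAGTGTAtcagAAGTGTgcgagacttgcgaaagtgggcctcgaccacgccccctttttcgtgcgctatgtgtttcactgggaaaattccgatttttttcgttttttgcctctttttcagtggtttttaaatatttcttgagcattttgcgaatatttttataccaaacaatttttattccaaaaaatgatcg
rpl-18A: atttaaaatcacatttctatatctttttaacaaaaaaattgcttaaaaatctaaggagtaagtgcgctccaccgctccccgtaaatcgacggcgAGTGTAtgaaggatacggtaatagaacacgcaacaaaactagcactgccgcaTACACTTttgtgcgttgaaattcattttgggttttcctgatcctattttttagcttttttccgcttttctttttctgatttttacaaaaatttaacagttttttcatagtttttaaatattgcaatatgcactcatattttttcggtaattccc
rpl-15: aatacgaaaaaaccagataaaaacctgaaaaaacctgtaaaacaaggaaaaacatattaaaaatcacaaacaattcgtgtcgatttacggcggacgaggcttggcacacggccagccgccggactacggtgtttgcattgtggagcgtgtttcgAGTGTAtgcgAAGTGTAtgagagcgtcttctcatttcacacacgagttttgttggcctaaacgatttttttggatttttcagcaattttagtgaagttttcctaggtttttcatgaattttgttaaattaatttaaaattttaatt

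The marked words were picked after the sequences were seen, so their presence in these regions is not a result. Around the summits of the 73 ribosomal protein genes with a pooled peak outside those 4, AAGTGT occurred within 100 bp at 10 (13.7%), against 956 of 7786 other genes with a pooled peak (12.3%). AGTGTA occurred at 2 of the 73 (2.74%), against 6.90% of the other genes. Both shares were thus near or below the background. Among the 9 of these members with an optimal peak AAGTGT occurred at 3 (33.3%) and AGTGTA at 2 (22.2%). These are few genes, and the share over other genes with an optimal peak was not counted, so no comparison is drawn. Of the 18 shared words, AAATCG had the widest gap, at 43.8% of the 73 members and 25.8% of the other genes. It was picked as the widest, and some words went the other way, such as CATACA at 1.37% and 6.49%. Among the 73, AAATCG was at 30 of 54 members with an upstream summit (55.6%) and at 2 of 19 with a downstream one (10.5%). It was at 27.0% of the other genes with an upstream summit, and those with a downstream summit were not counted apart. Among genes with a pooled peak it was at 35.7% for mitochondrial ribosomal proteins and 19.4% for proteasome subunits. The B box, searched as GTTCNANNC on both strands, lay within 100 bp of 1 of 77 member summits, that of rps-29, and of 10.2% of the summits of other genes.

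Occupancy was scored from the authors' peak lists. A gene had a peak where a peak overlapped, by at least 1 bp, the 500 bp on either side of any of its transcript starts, and its value was the highest signal value among those peaks. The signal value is a score that the authors' peak caller gave to each peak, and it has no fixed unit. In the optimal list, 2123 peaks that the authors kept by the irreproducible discovery rate and that are also the 2123 strongest of the pooled list, 13 of 78 ribosomal protein genes had a peak (16.7%, Wilson 95% interval 10.01 to 26.46%), against 2.68% of the other protein-coding genes. In the pooled list of 24907 peaks, 77 of 78 had one (98.7%, interval 93.1 to 99.8%), against 39.1% of the others. The pooled list, like the replicate lists, was made as input for that step and holds background as well as peaks, with 19124 entries of the pooled list at a q-value above 0.05, so an entry in it is weaker evidence than an optimal peak. The optimal list thus held a minority of the family and the pooled list nearly all of it.

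The replicate lists gave the same picture at the level of presence. In replicate 1, 75 of 78 members had a peak, against 40.6% of the other genes. In replicate 2, 76 had one, against 42% of the others. A peak in both replicates was found at 74 members (94.9%) and at 26.4% of the others. The median pooled peak was 600 bp wide, so a peak can reach the window with its summit outside it. With the summit itself required inside the window, 72 members kept a pooled peak (92.3%), against 31.2%, and 11 kept an optimal peak, against 1.67%. At 68 members the highest pooled peak had a deposited q-value of at most 0.05, which held for 14.3% of the others.

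The signal at these genes was moderate. The 77 members with a pooled peak had signal values between 7.61 and 117, with a median of 34.3 and quartiles of 24.2 and 48.995. The 7786 other genes with a pooled peak had a median of 14.7, quartiles of 10.1 and 24.2, and a maximum of 7863. The lower quartile of the ribosomal protein genes was therefore at the upper quartile of the other genes with a peak, while the highest member stayed far below the strongest genes. Ranked among all 19971 protein-coding genes, with genes lacking a peak tied at the bottom, the members had a median percentile of 93.7 in the pooled list, 94.3 in replicate 1 and 95.1 in replicate 2. A percentile of 90 or more was reached by 56 members (71.8%), against 9.76% of the other genes.

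**Figure D1:**
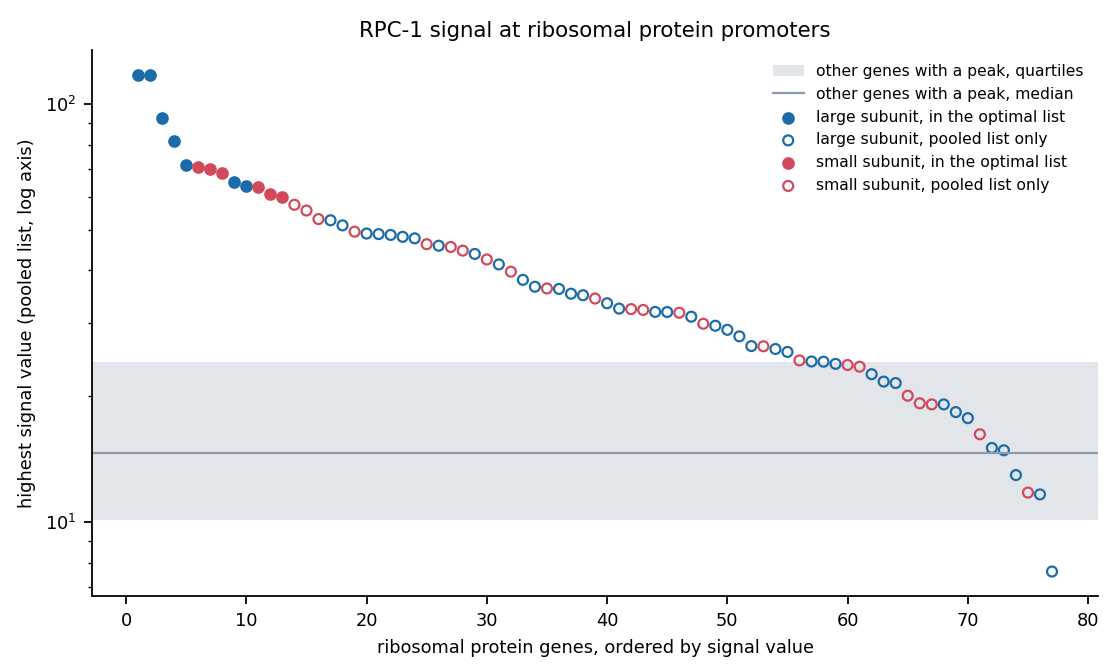
Highest signal value in the pooled list (log axis) of each of the 77 ribosomal protein genes with a peak, in descending order; filled points are in the optimal list, open points in the pooled list only, blue is the large and red the small subunit. The grey line and band are the median (14.7) and quartiles (10.1 and 24.2) of other protein-coding genes with a peak; the 13 filled points, from 60.0 to 117, are the highest of the series, which has no step at the edge of the optimal list.

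The depth in the list at which the members appeared was narrow. Among the 1000 strongest pooled peaks none reached a ribosomal protein gene, while 1.48% of the other protein-coding genes had one. The 3000 strongest peaks took in 38 members (48.7%), against 5.82% of the others. The 5000 strongest took in 64 (82.1%), against 12.5%, and the 10000 strongest took in 73 (93.6%), against 22.2%. The optimal list ends at a signal value of 60.0, inside this rise, so the 13 members in it were the upper edge of a continuous series. The 3 members just inside that edge were rps-11 at 63.4, rps-17 at 61.0 and rps-12 at 60.0, and the 3 just outside were rps-19 at 57.4, rps-3 at 55.6 and rps-28 at 53.1.

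**Figure D2:**
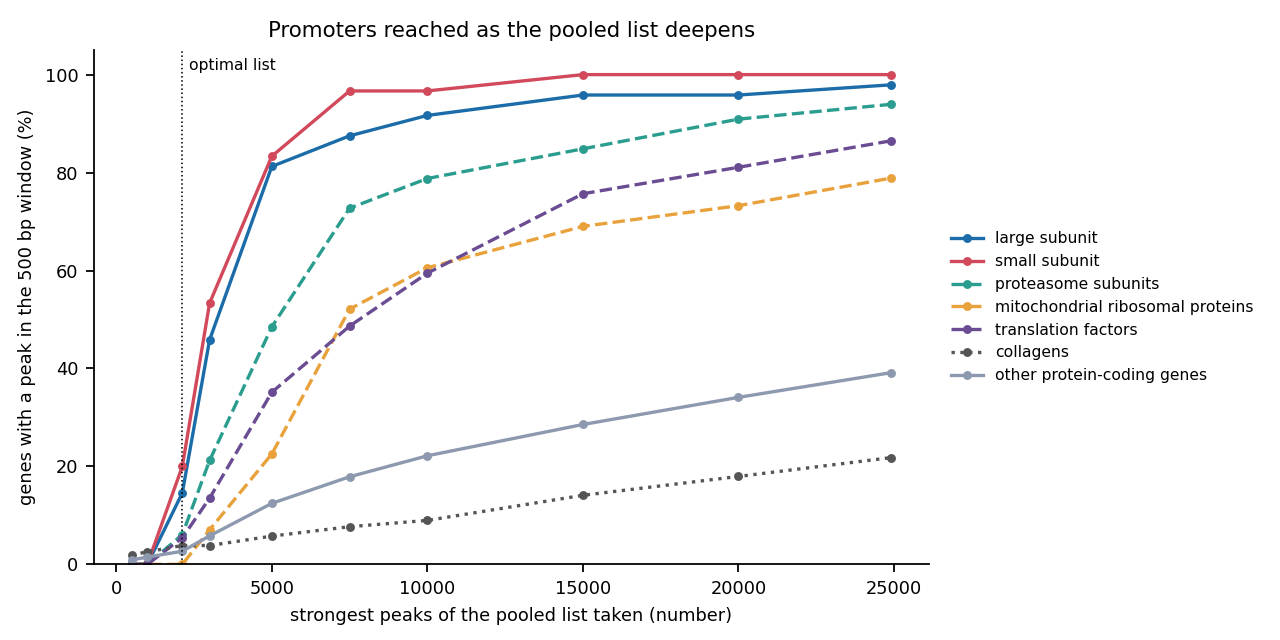
Share of genes (%) with a peak in the 500 bp window when only the strongest peaks of the pooled list are taken, against the number of peaks taken, for both ribosomal subunits, other gene lists and all other protein-coding genes. The dotted line marks the size of the optimal list (2123 peaks); both subunits rise from 0% at 1000 peaks to over 80% at 5000.

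Large subunit genes held the 5 highest values of the pooled list. Upstream of rpl-35, which encodes uL29, a protein at the rim of the peptide exit tunnel, the signal value was 117 in the pooled list, 73.0 in replicate 1 and 47.5 in replicate 2. Upstream of rpl-3, whose product uL3 reaches towards the peptidyl transferase centre, it was 117 in the pooled list, 65.3 in replicate 1 and 55.3 in replicate 2. These genes held the first places in each of the 3 lists, rpl-35 ahead in replicate 1 and rpl-3 ahead in replicate 2. The next were rpl-18A (eL20), with 92.7 pooled, 51.9 and 39.2 in the replicates, and rpl-15 (eL15), a core protein of the large subunit, with 81.4 pooled, 48.3 and 37.7. At rpl-38, whose mouse homologue is needed for the translation of particular Hox mRNAs, the values were 71.3 pooled, 33.0 in replicate 1 and 45.8 in replicate 2. The 2 remaining large subunit genes in the optimal list were rpl-22 (eL22), with 65.1 pooled, 27.8 and 35.8, and rpl-37A (eL43), with 63.5 pooled, 37.4 and 21.7.

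Small subunit genes filled most of the next places in the pooled list. At rps-23, which encodes uS12, a protein of the decoding centre, the signal value was 70.6 in the pooled list, 38.1 in replicate 1 and 33.2 in replicate 2. At rps-3A (eS1), a protein of the small subunit platform, it was 69.7 pooled and 60.5 in replicate 1, but 5.79 in replicate 2. At rps-20 (uS10), in the head of the small subunit, it was 68.5 pooled, 48.9 and 19.9. Since scores of different lists have no common scale, the libraries are compared by percentile, which was 97.5 and 97.8 at rps-23, 98.0 and 69.3 at rps-3A, and 97.8 and 95.6 at rps-20, in replicates 1 and 2. At rps-3A the peak of replicate 2 had a −log10 q of 0.197, although the gene is in the optimal list. Values at rps-11 (uS17) were 29.2 in replicate 1 and 32.0 in replicate 2, and at rps-17 (eS17) they were 33.9 and 18.6. At rps-12 (eS12), whose fly homologue acts in cell competition, both replicates gave 30.8.

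The subunits did not separate. An optimal peak was found at 7 of 48 large subunit genes (14.6%, interval 7.25 to 27.2%) and at 6 of 30 small subunit genes (20%, interval 9.51 to 37.3%), intervals that overlap widely. The median pooled signal value was 32.4 for the large subunit, with quartiles of 24.05 and 48.37, and 38.0 for the small subunit, with quartiles of 24.9 and 55.0. For the large and the small subunit in that order, the medians were 20.8 and 22.3 in replicate 1 and 18.2 and 19.1 in replicate 2. The lists have no common scale, so the size of the difference cannot be compared between them. All 30 small subunit genes had a peak in the pooled list and in both replicate lists. For the large subunit the counts were 47 of 48 in the pooled list, 45 in replicate 1 and 46 in replicate 2.

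The weakest members included copies of duplicated genes. The lowest 5 values in the pooled list were 14.9 at rpl-19 (eL19), 13.0 at rpl-13A (uL13), 11.8 at rps-27A, a ubiquitin-like fusion and the lowest of the small subunit, 11.7 at rpl-23A.1 (uL23A) and 7.61 at rpl-37.2 (eL37). For eL37, the other copy, rpl-37.1, stood at 36.1, near the family median. For uL23, a protein beside the exit tunnel, rpl-23A.2 on chromosome I stood at 45.8, against 11.7 for rpl-23A.1 on chromosome X. The pooled summits of the higher copies lay past the gene end, by 39 bp at rpl-37.1 and 22 bp at rpl-23A.2. Those of rpl-37.2 and rpl-23A.1 lay at -199 and -244 bp from the start, so peaks at different places are compared. For uL5, which binds 5S rRNA, rpl-11.1 on chromosome V had 24.2 and rpl-11.2 on chromosome X had 15.04. For eL41, rpl-41.2 had 35.2 and rpl-41.1 had 19.1, an order that turned in replicate 2, where the values were 5.14 and 6.23. Both members on chromosome X were the lower copy of such a pair. The gene without a peak in any of the 4 lists was rpl-42, whose annotated product names no ribosomal protein, while eL42 is the product of rpl-36A, with 52.7 in the pooled list.

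The replicates agreed in presence more closely than in order. Over the 74 members with a peak in both, Spearman's rho across genes between the replicate signal values was 0.457, and over the 5259 other genes with both it was 0.583. Genes of 1 library are not independent replicates, and the members cover a narrow range of values. The percentile of a member differed between the replicates by a median of 3.09 points. The median gap of the other genes was 1.82 points, but 8727 of these 19893 genes had no peak in either replicate. Genes without any peak are tied at the bottom of both lists, with a fixed gap of 0.691 points. The 2 medians therefore do not compare agreement at genes with peaks. The gap was more than 25 points at 5 members (6.41%), against 30.8% of the other genes. Among those, a peak in 1 library only is more frequent. At rps-3A the percentile was 98.0 in replicate 1 and 69.3 in replicate 2, and at rpl-41.2 it was 94.5 and 65.4. The other 3 lacked a peak in 1 library, rpl-11.2 and rpl-37.2 in replicate 1 and rpl-23A.1 in replicate 2. Taking the 2123 strongest peaks of 1 library at a time, replicate 1 reached 6 members (7.69%), against 2.48% of the other genes, and replicate 2 reached 14 (17.9%), against 2.62%. The members reached by both were rpl-3, rpl-15, rpl-18A and rpl-35, which also had the 4 highest pooled values.

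**Figure D3:**
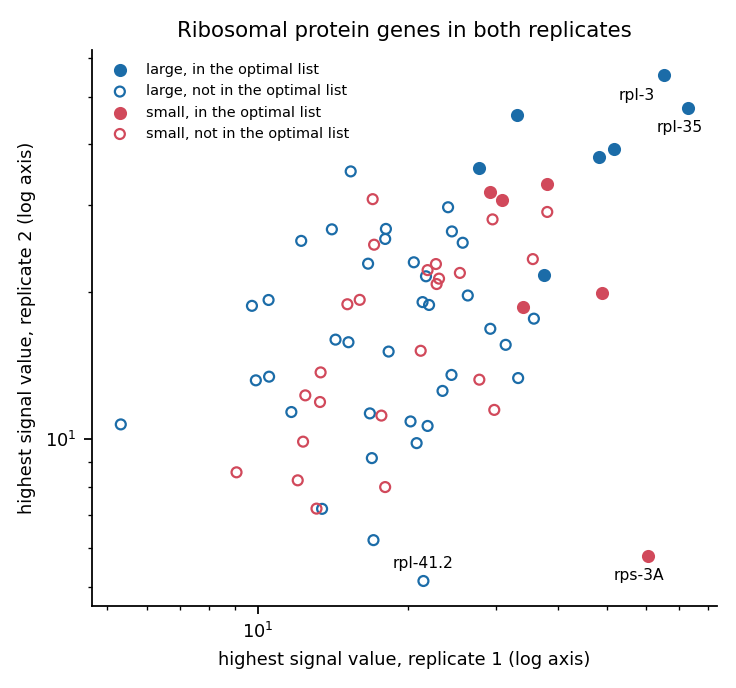
Highest signal value of the 74 ribosomal protein genes with a peak in both replicates, replicate 1 against replicate 2 (both axes log); filled points are in the optimal list, blue is the large and red the small subunit. The axes are scores of separate lists and have no common scale; rps-3A stands apart, with 60.5 in replicate 1 and 5.79 in replicate 2, and other filled points, such as rps-17 at 18.6, also lie in the middle of the replicate 2 range.

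Summits lay upstream of the annotated starts. Over the 77 members the summit of the highest pooled peak stood at a median of -246 bp from the nearest start, with quartiles of -331 and -41 bp, where a negative offset is upstream. With a window of 1000 bp the median was -132 bp. In the 500 bp window it was upstream at 58 members (75.3%) and downstream at 19, against 64.5% upstream for the other genes. In replicate 1 it was upstream at 72% of members and 63.0% of the others, and in replicate 2 at 63.2% and 60.2%, where the shares were close. Within 100 bp of the start there were 4 of 77 summits (5.19%), against 15.7% for the other genes, whose median offset was -143 bp. The medians of the replicate lists, -225 bp in replicate 1 and -227.5 bp in replicate 2, were close to the pooled value. Among the 13 members in the optimal list, 12 summits were upstream, with a median over all 13 of -270 bp, while 322 of the 534 other genes with an optimal peak (60.3%) had theirs upstream, with a median of -209 bp. The exceptions to a tight range were rpl-37A at -707 bp, where the summit was nearer to the start of bop-1, and rps-17 at 705 bp downstream, which is 34 bp past the end of that short gene. All 13 summits lay between protein-coding genes, as did 56 of all 77 member summits in the pooled list. The rest of the 77 lay in coding sequence (3), in UTR (10) or in introns only (8). This was not counted for the other protein-coding genes, so it is not known whether the members differ from them.

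Summit positions were compared between the libraries. For the 13 members of the optimal list the summits of the replicate lists were a median of 33 bp apart, and at 12 of them both lay within 100 bp of the pooled summit. The exception was rpl-37A, whose replicate summits were 1055 bp apart. The optimal list was itself kept by reproducibility between these same libraries. The distance was not computed for other genes with an optimal peak, so the closeness at these 13 is not a result about the family. Over all 74 members with a peak in both replicates the median distance was 158.5 bp and the quartiles were 52.5 and 675.5 bp. The other genes had a median of 196 bp, so over the whole family the summits agreed between the libraries about as closely as elsewhere.

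Summits flanked the genes on both sides. To include every pooled summit and not only the highest, summits were counted in steps of 100 bp around the start of the 74 members with 1 annotated start. The density was 31.1 summits per 100 genes in each step between -400 and -200 bp, against 4.21 and 5.31 for the other genes. It fell to 8.11 at the start, against 4.36 just before it and 3.23 just after it for the other genes. Between 200 and 300 bp downstream it fell to 0, against 2.46, and it rose again to 20.3 between 700 and 800 bp, against 2.35. Ribosomal protein genes are short, with a median length of 747.5 bp against 2015 bp for the other genes, so this second rise lies where the genes end. Gene ends were examined at the 73 members of at most 1500 bp with 1 start. The density was 34.2 summits per 100 genes in the 100 bp after the end, against 5.12 for other genes of that length. Between 300 and 400 bp after the end it was 5.48, against 3.21, so the other short genes also had more summits just after the end.

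**Figure D4:**
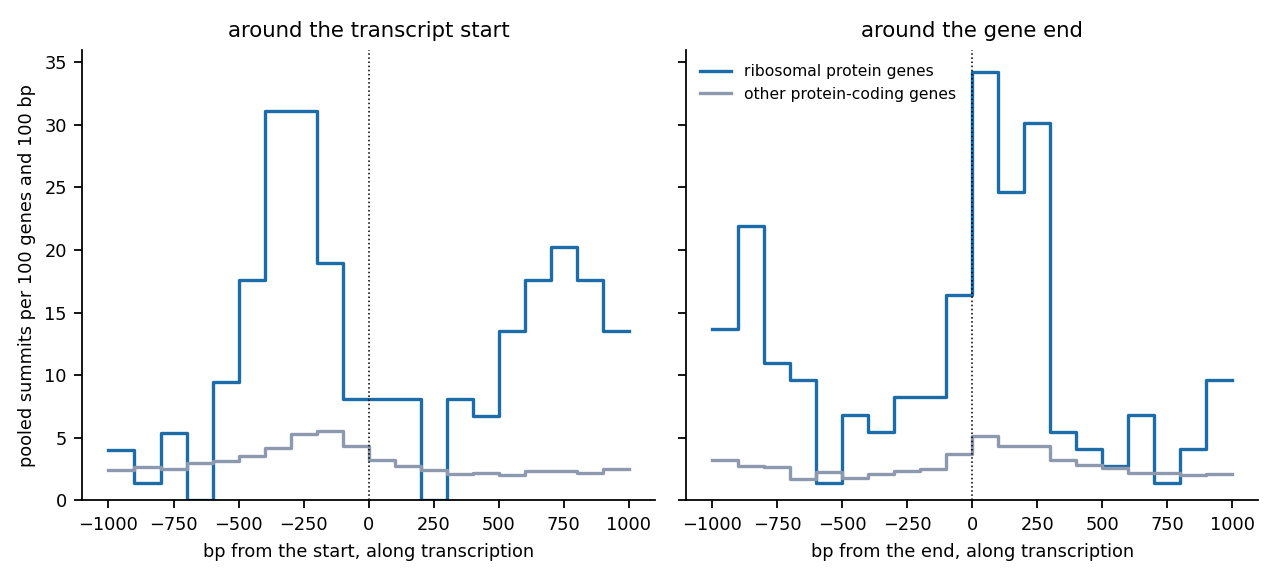
Summits of the pooled list per 100 genes in steps of 100 bp, around the transcript start (left, genes with 1 start: 74 members, 15811 other genes) and around the gene end (right, genes of at most 1500 bp with 1 start: 73 members, 6480 other genes); blue is ribosomal protein genes and grey the other protein-coding genes. The members have a rise to 31.1 before the start and a rise to 34.2 just after the end, with lower density between.

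Counted per gene over those 73 short members, 64 had a summit in the 500 bp before the start (87.7%), against 17.9% of the 6480 other genes of that length. After the end, 57 had one within 500 bp (78.1%), against 16.9%. Between start and end, 33 had one (45.2%), against 16.9%. Both flanks held a summit at 51 members (69.9%), against 6.68% of the others. Per kb of sequence this was 2.11 summits before the start, 0.735 within the gene and 1.97 after the end, while the other short genes had 0.415, 0.227 and 0.396. The members thus had about equal densities on both flanks and a lower one inside, and the other genes had the same order at a lower level. Proteasome subunit genes, 17 of which were short enough, had similar shares, with 82.4% before the start, 52.9% within the gene and 70.6% after the end. For 42 genes of mitochondrial ribosomal proteins the shares were 52.4%, 50% and 45.2%, so the share within the gene was not the lowest. Per kb these 42 had 1.19, 0.564 and 0.905 summits.

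Starts of neighbouring genes often lay near the starts of the members. Another protein-coding gene started within 1 kb of 54 of 78 members (69.2%), against 24.2% of the other genes. All 54 had a pooled peak, and 8 had an optimal peak (14.8%), against 54.6% and 2.78% of the other genes with such a neighbour. Of the 24 members without such a neighbour, 23 had a pooled peak (95.8%) and 5 an optimal peak (20.8%), against 34.2% and 2.65% of the other genes without one. The high share of members with a peak was thus present with and without a neighbouring start. At 27 of the 77 members the summit was nearer to the start of another gene than to that of the member. In the optimal list this was so at 4 members, rpl-18A beside Y17G9B.5, rps-20 beside ekl-4, rpl-22 beside ify-1 and rpl-37A beside bop-1. Neither count was made for the other protein-coding genes, so it is not known whether the members differ from them in this. In the pooled list the highest peaks of the 77 members were 77 distinct peaks, while in replicate 1 rps-10 and rpl-24 shared theirs. Whether a peak was also the highest of a gene outside the family was not counted.

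Pol III genes beside the members were looked for next. Counting the genes for tRNA, 5S rRNA, U6 snRNA, Y RNA, SRP RNA and the RNAs of RNase P and RNase MRP, 0 of 78 members had one within 1 kb, against 1.12% of the other genes, a share too low to set the members apart. The closest was 1831 bp from rpl-22, and the median distance was 125230 bp. The 222 other genes with such a neighbour had high values, and their median pooled signal value was 3067, far above the highest ribosomal protein gene. Without those 222, 1.75% of the other genes had an optimal peak and 38.5% a pooled peak. An annotated tRNA gene was overlapped by 0 of the 77 highest peaks at members and by 2.32% of those at other genes, and a tRNA pseudogene by 0 and 0.437%. An annotated gene of the general class ncRNA lay under the peak at 13 members (16.9%), against 6.72% of the other genes with a peak. At rps-3A these were F56F3.10 and F56F3.11.

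The members with a snoRNA gene inside them were not the stronger ones. Small nucleolar RNAs guide chemical changes in rRNA, and many are cut from introns of ribosomal protein mRNAs. In this annotation 15 members (19.2%) held 23 snoRNA genes, while 174 of the other genes (0.875%) held any. The hosts were rpl-4, rpl-6, rpl-7, rpl-7A, rpl-8, rpl-15, rpl-24, rpl-26, rpl-27A, rps-4, rps-12, rps-13, rps-23, rps-27A and rps-29. All 15 had a pooled peak, with values from 11.8 at rps-27A to 81.4 at rpl-15 and a median of 30.99. The 63 members without a snoRNA had a median of 34.6. An optimal peak was present at 3 hosts (20%), rpl-15, rps-23 and rps-12, and at 10 of the 63 others (15.9%). The highest pooled peak overlapped the snoRNA gene itself at 4 hosts, rps-12, rps-13, rps-29 and rpl-7A. That is 5.19% of the 77 members with a peak, and a snoRNA gene lay under the peak at 0.822% of the other genes with one. These shares are not alike, since 19.2% of members but 0.875% of the other genes hold a snoRNA gene. The share over the other hosts was not counted.

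Members were spread over every nuclear chromosome. Chromosome I carried 23, II 11, III 18, IV 17, V 7 and X 2. The median pooled signal value was highest on chromosome IV, at 46.2, and lowest on X, at 13.3 for rpl-11.2 and rpl-23A.1. Since the X value rests on 2 duplicated genes, chromosome and copy cannot be told apart there. The window around the start consisted entirely of 31-base words found once in the genome at 64 members, and fell under 90% at 5, rpl-7A (66.8%), rpl-8 (79.6%), rpl-37.2 (80.8%), rpl-37.1 (83.0%) and rps-24 (86.9%). Reads from such repeated stretches may have been split or dropped by the authors' alignment, so the values of those 5 are less certain.

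Short sequence elements in the promoters were also counted, from 250 bp before to 50 bp after the start. A B box match was present at 4 of 78 members (5.13%), rpl-9, rpl-15, rps-11 and rps-27, and at 8.78% of the other genes. TATAAA on either strand was present at 28.2% of members and 37.9% of the others. GAGAGA was at 21.8% and 21.7%, CACGTG at 1.28% and 5.84%, and CTGCGTC at 1.28% and 4.34%. TTTCAG on the strand of the gene, which resembles the 3' splice site used for trans-splicing, was present at 50 members (64.1%), against 40.1% of the others, and at 10 of the 13 members of the optimal list. A match is a description of the sequence only. GC content was similar, with medians of 33% and 34.3%.

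Ribosomal protein genes were then set beside 8 other gene lists. Genes for mitochondrial ribosomal proteins, which build a separate ribosome, had a pooled peak at 56 of 71 (78.9%), an optimal peak at 0 and a median percentile of 82.5. Proteasome subunit genes had the pooled share and the median percentile closest to those of the cytosolic ribosome, with 31 of 33 (93.9%), 2 optimal peaks and a median percentile of 87.0. Translation factor genes had 32 of 37 (86.5%), and aminoacyl-tRNA synthetase genes had 26 of 32 (81.3%), with 2 optimal peaks each. Collagen genes, which encode the cuticle, had 34 of 156 (21.8%), and the 6 vitellogenin genes, which encode yolk proteins, had 0, both below the 39.1% of protein-coding genes outside the ribosome. An optimal peak was present at 6 of the collagen genes (3.85%), above the 2.68% of the other genes, and at 0 of the vitellogenin genes. Of the 8 genes for Pol III subunits and factors, 5 had a pooled peak, with a median value of 12.1. Other snoRNA host genes had 122 of 174 (70.1%) and a median value of 20.4, below the 30.99 of the ribosomal hosts, and their 22 optimal peaks (12.6%) were the share nearest to the 16.7% of ribosomal protein genes. The median of 34.3 for ribosomal protein genes was above that of every list here, of which the proteasome had the highest, at 21.4.

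**Figure D5:**
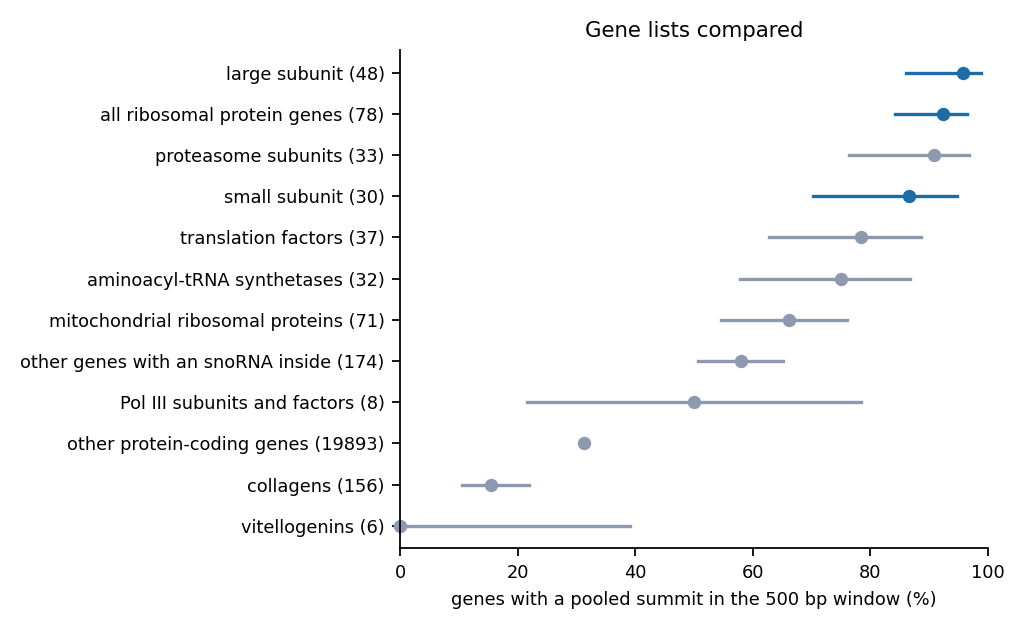
Share of genes (%) with a pooled summit inside the 500 bp window for each gene list, with the number of genes in brackets; points are shares, lines are Wilson 95% intervals for counting over genes, and blue marks ribosomal protein genes. All ribosomal protein genes stand at 92.3%, proteasome subunits at 90.9% with an overlapping interval, and other protein-coding genes at 31.2%.

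The names used to choose the members leave out related genes. The stalk proteins, which recruit the translation factors, are encoded by rplp-0, rplp-1, rplp-2.1 and rplp-2.2, with pooled signal values of 18.1, 41.6, 26.9 and 33.5. The small subunit gene rpsa-1 had 9.12. All 5 had a pooled peak and 0 had an optimal peak, values inside the range of the 77 members.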

How the data were processed

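RPC-1 ChIP-seq was analysed from 2 libraries of whole C. elegans young adults, biological replicates of 1 group. The deposited files used here are 4 narrowPeak lists on ce11. Per the deposited file descriptions, the replicate lists were made from each replicate with a control alignment, the pooled list from both replicates, and the optimal list from these lists by the irreproducible discovery rate. No source used here names the aligner, the peak caller or their thresholds. The signal value is a score deposited by the authors, with no common scale between lists. Values of different lists are printed side by side, and lists were compared by percentile or rank. The deposited −log10 q column shares 1 highest value per list (3.78 in the pooled list), so it served only for the count at a q-value of 0.05. The summit position is the authors' deposited offset of each peak. Every optimal peak is also in the pooled list with the same score, so these lists are not independent. Read depth is unknown for these values, and Wilson 95% intervals cover counting over genes only.

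Genes, starts and sequences came from RefSeq WBcel235. The sequence of 1 of the 4 strongest regions is not reported here. Overlaps, percentiles (mid-ranks over 19971 genes) and medians were computed with Python 3.11.15, numpy 2.4.6 and pandas 2.3.3, after the functions were tested on simulated peaks. With 1 group, no test between conditions was possible, and no p-value was computed. The members, lists and tests were chosen with earlier results of these data known. Named genes were all members with an optimal peak, the highest 10 and lowest 5, those beside the edge of the optimal list, those with a snoRNA or differing by more than 25 percentile points between replicates, and those with no peak. Duplicated pairs, neighbouring genes and sequence words were named after their values were seen. Alternatives changed the window (250 or 1000 bp), the summit rule, the starts used, the members and the list.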

Additional observations from a re-analysis of the deposited data

How the results depend on the processing

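Across 49 alternatives for 7 results, 33 stayed close to the reported value, meaning within 1.5 times for shares and the median signal value, and within 1 SD of the 2 replicate values for percentiles, subunit differences and offsets, a narrower limit. The share of ribosomal protein genes with an optimal peak was 12.8% with a window of 250 bp, against 1.90% of the other genes. With 1000 bp it was 23.1%, against 4.06%. When only the stronger part of the optimal list was kept it fell to 0%, against 1.53%, because that part ends above the highest member. With 1 library at a time it was 7.69% in replicate 1, against 2.48%, and 17.9% in replicate 2, against 2.62%. The share of members with a pooled peak stayed between 91.0% and 100%, the latter without rpl-42, an alternative chosen after seeing the data. For the other genes it was 32.9% with 250 bp, 48.3% with 1000 bp and 31.2% with the summit inside. In the stronger part of the pooled list it was 25.5% for those genes. The median percentile of the members was 94.4 with the summit inside the window, and 94.3 to 95.1 by library. The large minus small subunit difference in optimal share was -5.42 points, and -3.33 to 1.67 by library, so its sign differed between the libraries. The difference in median pooled value was -5.56, and -6.97, -7.02 and -6.57 with windows of 250 bp, 1000 bp and the summit inside, and -1.51 to -0.885 by library. Scores of the lists have no common scale, so the library values, and the limit set from them, cannot be compared with this pooled difference. The median summit offset was -257, -132 and -257.5 bp with windows of 250 bp, 1000 bp and the summit inside, and -227.5 to -225 bp by library. Leaving out members near a Pol III gene changed nothing, since there were none.

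No paired analysis was possible because both libraries belong to 1 group. Depth per library and the control alignments were not used here, and 2 libraries give only a poor estimate of the spread of single genes.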
